A study of Drosophila melanogaster with 6 samples.

Results

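The DNA replication genes of dividing cells were followed in RNA from adult Drosophila testes, as a read-out of cells in or near S phase. The list holds 10 genes chosen by name, namely Mcm2, Mcm3, Mcm5, Mcm6, Mcm7, Mcm10, PCNA, RnrL, RnrS and dup, out of 17559 genes in the count files. For Mcm3 no identifier of the count files is paired with that symbol in the annotation used, so 9 of the 10 genes have values and Mcm3 was not analysed here. The libraries came from 3 pools of testes with actin5C-Gal4>UAS-miR-2b-1 and 3 pools with actin5C-Gal4>w1118, the control. All flies carried the actin5C-Gal4 driver, were males of 3 to 5 days, and came from crosses kept at 28 °C. The driver uses the Act5C promoter, which is active in many tissues, so the transgene was not restricted to germ cells. The study's methods describe the transgene as UASp-miR-2b-1 from a stock balanced over TM3, and the driver stock as balanced over CyO. The control parent is w1118 in the labels and OreR in another passage of the study. The parent strain changes together with the transgene, so their parts cannot be told apart. Each library was 1 pool of testes, and nothing in the labels says that the pools came from separate crosses, so p-values measure the spread between these pools.

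In the fly testis, germline stem cells at the tip divide to give spermatogonia, which pass through mitotic rounds and then a last S phase before meiosis. Most of the organ by volume is made of spermatocytes and elongating spermatids, which no longer replicate their DNA. Before S phase, the origin recognition complex and the licensing factor Cdt1, called dup in flies, load a ring of 6 related proteins, Mcm2 to Mcm7, onto DNA. The ring becomes the replicative helicase, Mcm10 helps to start it, the PCNA clamp holds polymerases on the template, and ribonucleotide reductase, made of a large subunit (RnrL) and a small subunit (RnrS), makes the deoxynucleotides. Many of these genes are transcribed under the E2F factors. In a bulk sample, fewer cells of a type and less RNA per cell cannot be told apart.

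The libraries held 21202512 to 27789620 counts on genes with miR-2b-1 and 18047619 to 20282355 in the control. The gene mir-2b-1 itself had 0 counts in each of the 6 libraries, so the labels could not be checked on it. The markers of germ cells and of the testis sheath were present in all libraries, with bam, a switch gene of spermatogonia, at 2.13 to 3.55 CPM with miR-2b-1 and 1.52 to 3.57 CPM in the control. Here CPM is the count of a gene per 1000000 counts of its library, scaled by edgeR's TMM factors. Genes of the accessory gland and the ejaculatory duct, 26 in all, took 0.0464%, 0.122% and 1.09% of counts in miR-2b-1 replicates 1, 2 and 3, and 0.959%, 0.0185% and 0.589% in control replicates 1, 2 and 3. The share varied widely within both groups, and its source was not tested.

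None of the 9 replication genes passed the test between miR-2b-1 and control testes. At an adjusted p under 0.05 by the quasi-likelihood test of edgeR (Benjamini-Hochberg over all genes), 0 of the 9 were called, where 2.81% of all genes were. DESeq2 also called 0. At an unadjusted p under 0.05, 3 of the 9 were higher with miR-2b-1 and 0 were lower, against 8.41% of all genes that were higher and 6.33% that were lower by that rule. The 3 were PCNA, Mcm5 and Mcm6. The median log2 fold change was 0.36 over the 9 genes and 0.01 over the 12441 genes that passed edgeR's filterByExpr, with 6 of the 9 above 0. In 4 of the 9 genes every miR-2b-1 library lay above every control library, against 14.3% of the genes that passed the filter, and in 0 did the reverse hold, against 11.1%. A single gene compared over 3 against 3 libraries cannot fall below 0.1 in a two-sided exact permutation test.

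**Figure D1:**
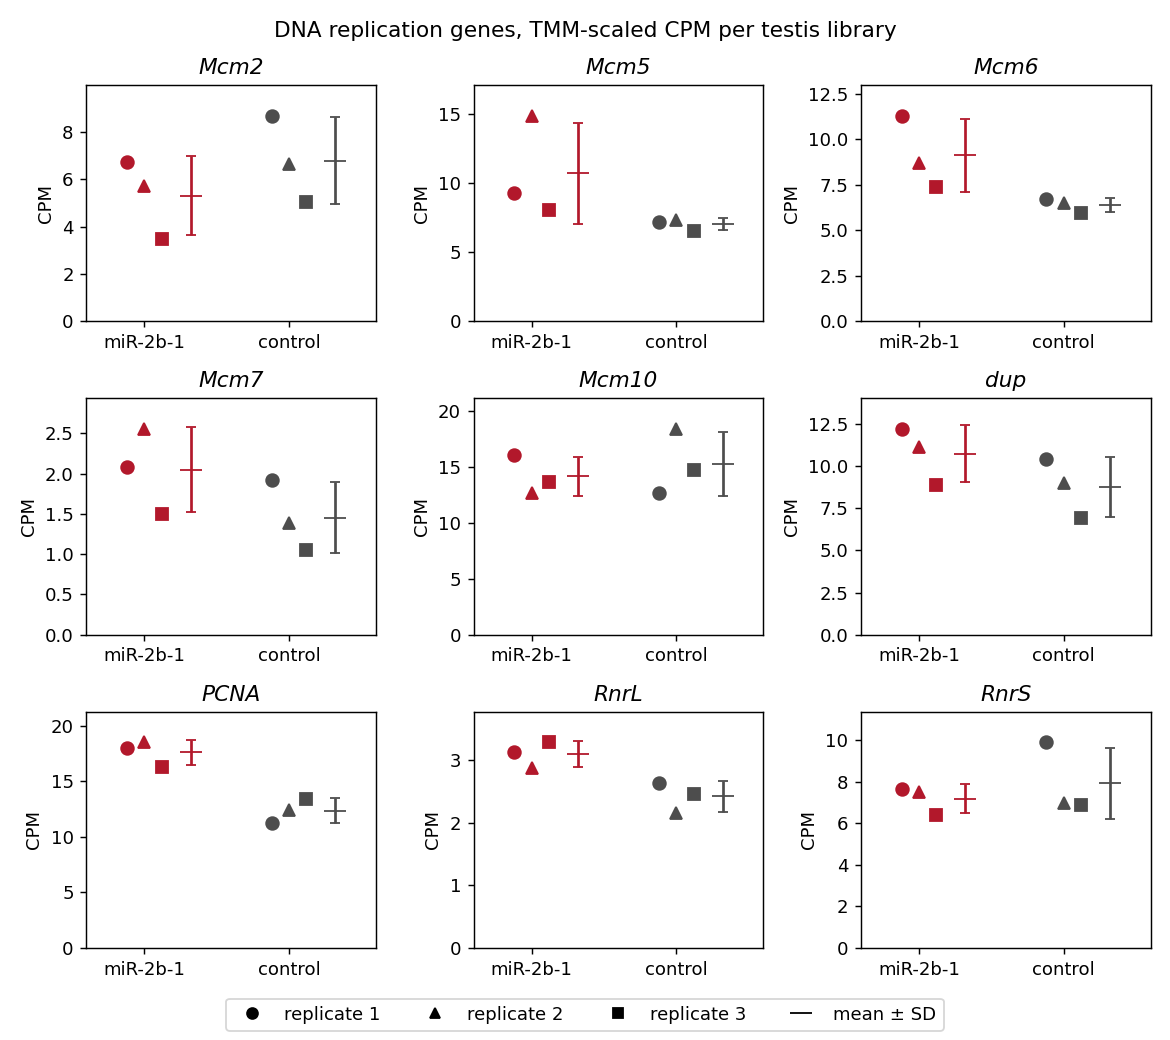
TMM-scaled CPM (vertical axes, from 0) of the 9 replication genes in each testis library, miR-2b-1 in red on the left and control in grey on the right, with marker shapes for replicates and bars for mean ± SD (n = 3 each). PCNA, Mcm5, Mcm6 and RnrL are the 4 genes whose groups do not overlap.

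Among the subunits of the helicase ring, Mcm5 (FBgn0017577, chromosome 3R, 10788524 to 10791150) had 9.25, 14.9 and 8.02 CPM with miR-2b-1, against 7.19, 7.35 and 6.55 CPM in the control. The miR-2b-1 values were higher without overlap, and replicate 2 stood well above the other two. The log2 fold change was 0.60 (standard error 0.227, 95% interval 0.13 to 1.08, edgeR adjusted p = 0.199). Without miR-2b-1 replicate 3 it was 0.78 and the edgeR adjusted p was 0.0403, the only one of 153 alternative values over the 9 genes that passed the threshold. Mcm6 (FBgn0025815, chromosome X, 6674387 to 6677176) had 11.3, 8.70 and 7.36 CPM with miR-2b-1, against 6.70, 6.53 and 5.96 CPM in the control. Its groups did not overlap either, and the log2 fold change was 0.51 (standard error 0.210, 95% interval 0.07 to 0.95, edgeR adjusted p = 0.251).

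Mcm2 (FBgn0014861, chromosome 3R, 8264970 to 8267924) did not share this direction. It had 6.75, 5.69 and 3.49 CPM with miR-2b-1, against 8.68, 6.63 and 5.03 CPM in the control. The groups overlapped, with a log2 fold change of -0.35 (standard error 0.270, 95% interval -0.93 to 0.22, edgeR adjusted p = 0.638). Mcm7 (FBgn0020633, chromosome 3L, 8891596 to 8894310) had 2.081, 2.551 and 1.499 CPM with miR-2b-1, against 1.92, 1.39 and 1.05 CPM in the control, from 43 to 56 counts with miR-2b-1 and 18 to 35 counts in the control. Its log2 fold change was 0.48, with an interval of -0.24 to 1.21 that is the widest of the 9 genes. The subunit missing from the list, Mcm4, is named dpa in flies. It had 23.0, 19.6 and 15.9 CPM with miR-2b-1, against 15.2, 16.6 and 17.5 CPM in the control, a log2 fold change of 0.25 (edgeR adjusted p = 0.597).

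Because Mcm2 lay on the other side of 0 from its partners, the ratios of CPM per kilobase of exon were taken within each library, after the values had been seen. The ratio of Mcm5 to Mcm2 was 1.62, 3.08 and 2.72 with miR-2b-1, against 0.980, 1.31 and 1.54 in the control. The ratio of Mcm6 to Mcm2 was 1.74, 1.59 and 2.19 with miR-2b-1, against 0.802, 1.02 and 1.23 in the control, and that of Mcm7 to Mcm2 was 0.365, 0.530 and 0.508 with miR-2b-1, against 0.262, 0.247 and 0.247 in the control. All 3 ratios were higher with miR-2b-1 in every library, with p = 0.1 in the two-sided exact permutation test, the smallest it can give. Of the exon bases 81.7% are shared with another gene for Mcm7, against 0% for Mcm2. The size of the Mcm7 ratio therefore depends on the length used, while the order of the libraries does not. The ratio of dpa to Mcm2 overlapped between the groups (exact permutation p = 0.3). These 4 ratios share the Mcm2 values, so they are not separate observations, and no adjusted p under 0.05 is possible for them. Mcm2 was picked for its direction in the same values, so the exact p gives no support for a difference.

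**Figure D2:**
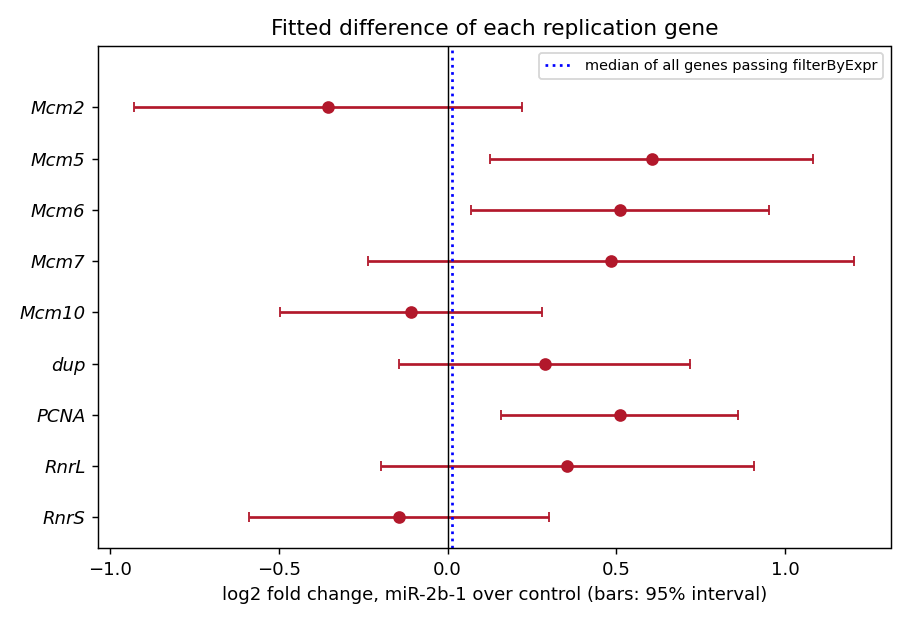
Fitted log2 fold change of miR-2b-1 over control (horizontal axis) for each of the 9 genes, with 95% intervals as bars and the median over all genes passing filterByExpr as a dotted line. The intervals of Mcm5, Mcm6 and PCNA lie above 0 before adjustment over all genes, and those of the other 6 genes include 0.

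Of the genes that load or start the helicase, dup (FBgn0000996, chromosome 2R, 15376619 to 15380988) had 12.2, 11.1 and 8.86 CPM with miR-2b-1, against 10.4, 8.99 and 6.90 CPM in the control. The groups overlapped and the log2 fold change was 0.29 (95% interval -0.14 to 0.72, edgeR adjusted p = 0.601). Its inhibitor geminin, which keeps Cdt1 from loading origins again, had 60.1, 56.9 and 69.8 CPM with miR-2b-1, against 49.4, 58.4 and 52.5 CPM in the control, a log2 fold change of 0.22 (edgeR adjusted p = 0.556). Mcm10 (FBgn0032929, chromosome 2L, 21179933 to 21182812) had 16.1, 12.7 and 13.7 CPM with miR-2b-1, against 12.7, 18.4 and 14.7 CPM in the control. Its log2 fold change of -0.11 had an interval of -0.50 to 0.28, which leaves out a change of 1 on the log2 scale either way. The sign of the Mcm10 value turned without control replicate 2 (0.049) and with total counts in place of TMM (0.0073).

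PCNA (FBgn0005655, chromosome 2R, 20261754 to 20262883), the sliding clamp, had the lowest p of the 9 genes. It had 18.0, 18.5 and 16.3 CPM with miR-2b-1, against 11.3, 12.4 and 13.4 CPM in the control, or 17.6 ± 1.14 CPM with miR-2b-1 against 12.4 ± 1.09 CPM in the control (SD, n = 3 each). The lowest miR-2b-1 library was above the highest control library. The log2 fold change was 0.51 (standard error 0.166, 95% interval 0.16 to 0.86), which is 1.42-fold, with an unadjusted p of 0.00698 and an edgeR adjusted p of 0.130. Across the 17 alternatives the value ranged from 0.44 to 0.62 and the adjusted p from 0.0635 to 0.375. Its paralog PCNA2 had 9.25, 9.11 and 6.21 CPM with miR-2b-1, against 7.03, 5.91 and 4.03 CPM in the control. The groups of PCNA2 overlapped, with a log2 fold change of 0.53 (edgeR adjusted p = 0.314).

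The ribonucleotide reductase subunits stood on different sides of 0. RnrL (FBgn0011703, chromosome 2L, 10325026 to 10327943) had 3.12, 2.87 and 3.28 CPM with miR-2b-1, against 2.64, 2.16 and 2.45 CPM in the control, without overlap. The log2 fold change was 0.36 (standard error 0.262, 95% interval -0.20 to 0.91, edgeR adjusted p = 0.618), from 63 to 94 counts with miR-2b-1 and 42 to 48 counts in the control. RnrS (FBgn0011704, chromosome 2R, 11983145 to 11985393) had 7.63, 7.52 and 6.38 CPM with miR-2b-1, against 9.88, 6.99 and 6.90 CPM in the control. Control replicate 1 alone was above all the others. The log2 fold change was -0.14 (95% interval -0.59 to 0.30, edgeR adjusted p = 0.885), and without control replicate 1 it was 0.047.

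The genes differed more from each other in level than the groups did. Per kilobase of exon, the order of mean levels with miR-2b-1 was PCNA at 16.5 ± 1.07, Mcm10 at 5.03 ± 0.620, RnrS at 4.50 ± 0.434, Mcm5 at 4.37 ± 1.48, dup at 3.42 ± 0.541, Mcm6 at 3.27 ± 0.717, Mcm2 at 1.83 ± 0.574, RnrL at 1.20 ± 0.0799 and Mcm7 at 0.834 ± 0.215 CPM per kilobase (SD, n = 3). In the control, PCNA also led, with 11.6 ± 1.02 CPM per kilobase, and Mcm7 was again last, with 0.593 ± 0.179. Mcm10, RnrS and Mcm5 did not differ beyond their spread with miR-2b-1, nor did dup and Mcm6. PCNA lay above all the others in each of the 6 libraries.

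For Mcm7 the level depends on which exon bases are taken as its length. Of its 2451 exon bases, 81.7% are shared with the antisense RNA asRNA:CR45871, which itself had 0 to 8 counts per library. Over the 448 exon bases that no other gene shares, and taking all its counts to lie there, Mcm7 would be at 4.56 ± 1.18 CPM per kilobase with miR-2b-1 and 3.25 ± 0.979 in the control. That is above the means of Mcm5 and Mcm6 in both groups, where the value over all exon bases is below them. The strand setting of the counting is not stated. Of 371 protein-coding genes with every exon base shared with another gene, 346 (93.3%) had 0 counts in all 6 libraries, against 267 (2.91%) of 9167 genes that share none. Orc3, an origin recognition subunit, and dUTPase, which keeps uracil out of DNA, are fully shared in this way and had 0 counts. Their zeros therefore do not show that they are silent in the testis. The bases of dUTPase are shared with an RNA on the opposite strand, asRNA:CR45778, as those of Mcm7 are with asRNA:CR45871. How strand entered the counting was not tested. Mcm10 shares 13.0% of its exon bases with Ret and dup 5.04% with SRPK, while the other 6 genes share none.

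**Figure D3:**
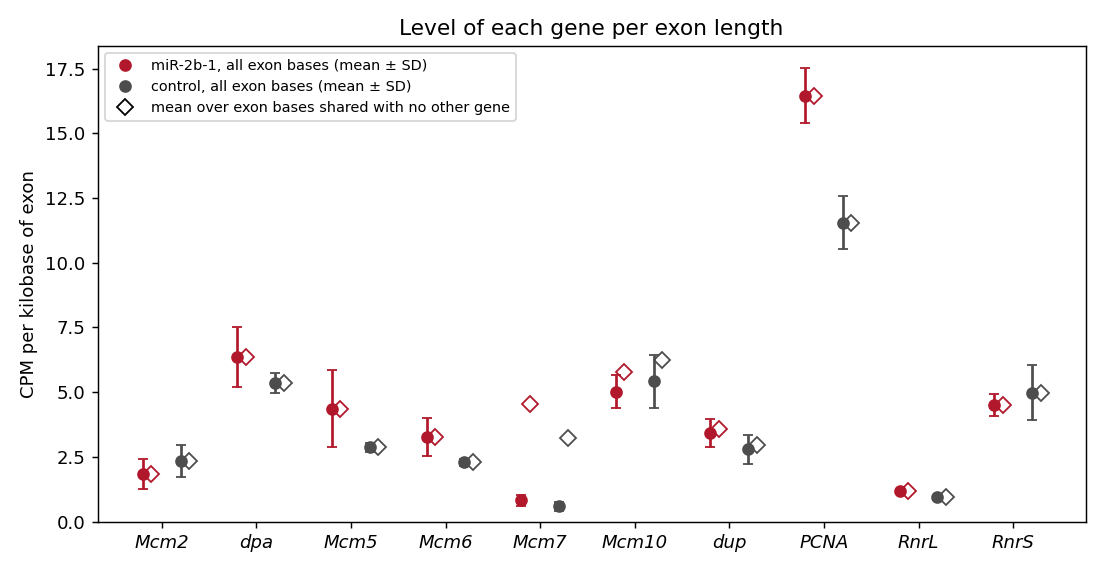
Level of the 9 replication genes and of dpa in CPM per kilobase of exon (vertical axis), miR-2b-1 in red and control in grey, as mean ± SD (n = 3 each) over all exon bases as filled points and, as open diamonds, the mean over exon bases that no other gene shares. PCNA leads at 16.5 with miR-2b-1 and 11.6 in the control, and the Mcm7 means move to 4.56 with miR-2b-1 and 3.25 in the control when shared bases are left out of its length.

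The libraries differed within the groups in a similar way for most of the genes. In miR-2b-1 replicate 3, 7 of the 9 genes were at their lowest for the group, and in control replicate 3, 6 of the 9 were. The summed level of the 9 genes was 86.4, 84.5 and 68.9 CPM in miR-2b-1 replicates 1, 2 and 3, and 71.4, 70.8 and 63.0 CPM in control replicates 1, 2 and 3. The miR-2b-1 and control sums therefore overlapped through miR-2b-1 replicate 3 alone. The accessory gland list was at its highest in that library, at 1.09% of counts. Among the control libraries the order differed, as replicate 1 had both the highest sum and the highest accessory gland share (0.959%), and replicate 3 the lowest sum with a share of 0.589%. The part of that share in the sums was not tested. With their share as a covariate, the median log2 fold change of the 9 genes was 0.37 and 0 genes were called. In the libraries with under 0.2% of such counts (miR-2b-1 replicates 1 and 2, control replicate 2), the median was 0.47 and 0 genes were called, with the lone control library assumed to vary like the others. Among the 36 pairs of genes, Pearson's r of log2 CPM over the 6 libraries ranged from -0.49 to 0.93, with a median of 0.43. Mcm7 and dup were the most alike pair (r = 0.93), and Mcm10 and RnrL the least (r = -0.49). All points share the same libraries, and these values describe 6 libraries only.

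The 5 genes whose log2 CPM was most like the mean standardised level of the 9, out of 12278 genes compared over the 6 libraries, were TfIIS, Pk34A, CG13097, Rca1 and CG2063, with Pearson's r between 0.99 and 1.00. Rca1, a regulator of cyclin A, had 32.9, 29.4 and 22.7 CPM with miR-2b-1, against 25.8, 22.8 and 18.4 CPM in the control. TfIIS, a transcription elongation factor, had 62.3, 57.2 and 46.2 CPM with miR-2b-1, against 48.8, 44.4 and 38.6 CPM in the control. In both genes replicate 3 was the lowest of each group, as it was for the mean standardised level of the 9. They were picked for likeness to that level, so this order is not a separate observation. With 6 points such likeness was common, as 550 of the 12278 genes had r above 0.9.

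The other genes of the replication machinery were placed in 4 lists by role. Of 64 such genes with values, 60 passed filterByExpr, 49 of those 60 had a log2 fold change above 0, and the median was 0.23, against 51.6% above 0 and a median of 0.01 over all genes that passed. Of the 64 genes, 1 was called, where 2.81% of all genes were. In 15 of the 60 every miR-2b-1 library was above every control library, which is 25% against 14.3% of all genes that passed.

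Of 20 origin licensing and helicase activation genes, 1 was called (2.81% of all genes were). The median log2 fold change of the 17 that passed the filter was 0.11. The called gene was timeout, a paralog of the clock gene timeless, which overlaps CG34308. It had 32.8, 30.7 and 36.0 CPM with miR-2b-1, against 16.5, 19.1 and 25.1 CPM in the control, so the groups did not overlap (log2 fold change 0.71, standard error 0.177, edgeR adjusted p = 0.0375). It lost the threshold without control replicate 1 or 2 or without miR-2b-1 replicate 1 or 2, with edgeR adjusted p of 0.109 to 0.223, and also with filterByExpr (0.0706), the newer quasi-likelihood method (0.0637), the prior that is not robust (0.128) and the accessory-gland-poor libraries alone (0.0720). It thus passed in 9 of the 17 alternatives. The MCM paralog rec, which acts in meiotic recombination in females, was near the detection limit, at 0.809, 1.00 and 0.872 CPM with miR-2b-1 and 0.604, 0.206 and 0.351 CPM in the control (edgeR adjusted p = 0.280).

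Of 21 polymerase and fork genes, 0 were called (2.81% of all genes were), with 5 higher and 1 lower at an unadjusted p under 0.05 in edgeR, against 8.41% of all genes higher and 6.33% lower. The list median was 0.28, and 18 of the 21 values were above 0. In 9 genes the miR-2b-1 libraries were all above the control libraries, and in 1 all below, against 14.3% and 11.1% of the genes that passed the filter. The 1 below was RPA1, the large subunit of the single-strand binding complex, named here after its values were seen. It had 49.6, 50.2 and 43.6 CPM with miR-2b-1, against 66.1, 60.2 and 57.6 CPM in the control (log2 fold change -0.36, edgeR adjusted p = 0.236). Of 6 genes of deoxynucleotide synthesis, 0 were called, with a median of 0.03 over the 5 that passed the filter. Thymidylate synthase, Ts, also named after its values were seen, had 5.63, 5.88 and 5.02 CPM with miR-2b-1, against 7.74, 9.82 and 9.93 CPM in the control (log2 fold change -0.73, edgeR adjusted p = 0.0645). It was past the threshold in 4 of the 17 alternatives.

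Of 17 genes that control S phase, 0 were called (2.81% of all genes were). At an unadjusted p under 0.05 in edgeR, 6 were higher and 0 lower (8.41% and 6.33% of all genes). The list median was 0.34. The E2F activator E2f1 had 21.7, 19.5 and 23.9 CPM with miR-2b-1, against 20.8, 18.6 and 20.2 CPM in the control (log2 fold change 0.12, 95% interval -0.22 to 0.47). Its partner Dp had a log2 fold change of 0.23 (edgeR adjusted p = 0.617), and CycE, the cyclin of S-phase entry, had one of 0.20 (edgeR adjusted p = 0.688). Rbf, the retinoblastoma homolog that restrains E2F, had 51.8, 45.2 and 37.8 CPM with miR-2b-1, against 31.9, 33.7 and 36.1 CPM in the control. Its groups did not overlap, with a log2 fold change of 0.41 (edgeR adjusted p = 0.222).

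**Figure D4:**
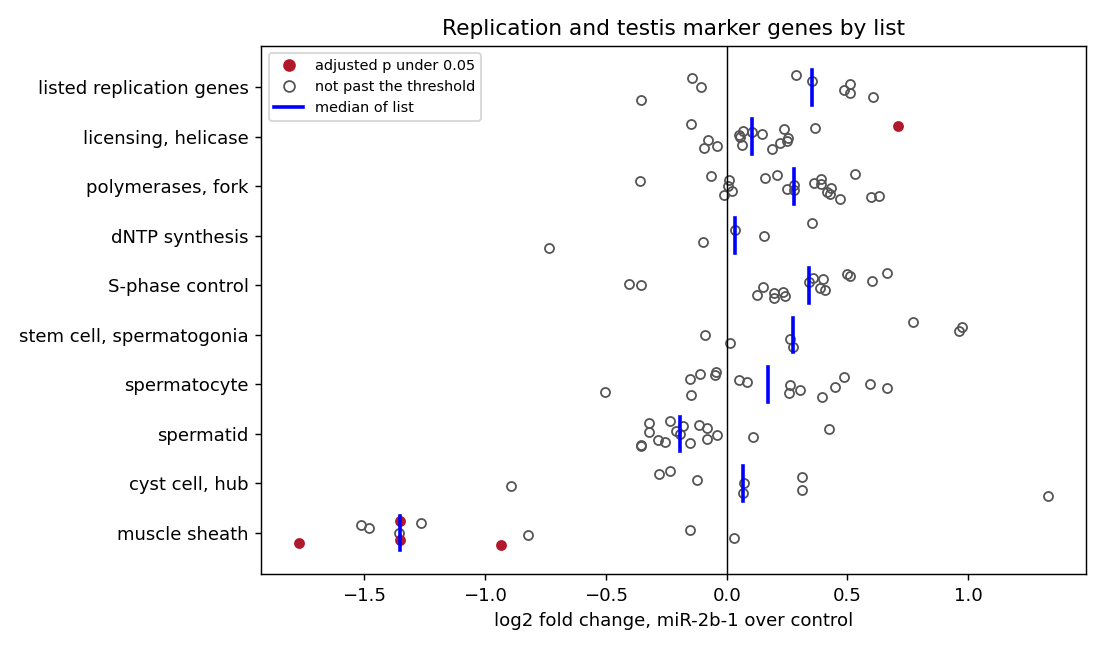
Log2 fold change of miR-2b-1 over control (horizontal axis) for every gene that passed filterByExpr in the replication lists and the testis marker lists, with filled red points for an adjusted p under 0.05 and blue bars for list medians. The 9 listed replication genes have a median of 0.36, the spermatid markers one of -0.19 and the muscle sheath markers one of -1.35.

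Markers of the germ cell stages and of other cells in the pools were read beside these values, and their part in the results was not tested. The counts of each list stand against 2.81% of all genes called, 1.51% called lower, and 8.41% higher and 6.33% lower at an unadjusted p under 0.05. Of 7 markers of germline stem cells and spermatogonia with values, 0 were called, with 2 higher at an unadjusted p under 0.05 in edgeR and a median of 0.27. Their summed level was 179 to 216 CPM with miR-2b-1 and 175 to 207 CPM in the control. The marker bam had a log2 fold change of 0.27 (95% interval -0.42 to 0.97, edgeR adjusted p = 0.823), and vas and nos were not analysed here. The markers tut, bgcn and mei-P26 had log2 fold changes of 0.26, 0.01 and -0.09, with groups that overlapped. The piRNA genes piwi and aub and the gap junction gene zpg, named after their values were seen, had the largest log2 fold changes of the list. The level of piwi was 5.67, 4.74 and 3.49 CPM with miR-2b-1, against 3.46, 2.67 and 1.99 CPM in the control (log2 fold change 0.77, edgeR adjusted p = 0.183). For aub it was 16.2, 14.1 and 9.69 CPM with miR-2b-1, against 10.05, 6.89 and 3.39 CPM in the control (log2 fold change 0.98, edgeR adjusted p = 0.369). The groups of aub overlapped, and aub was past the threshold in 3 of the 17 alternatives. For zpg the level was 3.51, 2.69 and 2.13 CPM with miR-2b-1, against 1.48, 2.06 and 0.701 CPM in the control (log2 fold change 0.96, edgeR adjusted p = 0.207). In all 3 genes replicate 3 was the lowest library of each group, as it was for most of the replication genes.

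Of 16 spermatocyte markers, 0 were called, with 5 higher and 1 lower at an unadjusted p under 0.05 in edgeR (8.41% and 6.33% of all genes) and a median of 0.17. Among them aly, a regulator of the meiotic arrest class, had 28.5, 27.6 and 24.9 CPM with miR-2b-1, against 22.6, 21.8 and 17.2 CPM in the control (log2 fold change 0.39, edgeR adjusted p = 0.268). Of the 16 values 10 were above 0, against 51.6% of the genes that passed the filter. In 5 of the 16 all miR-2b-1 libraries lay above the control libraries, and in 2 all below, against 14.3% and 11.1% of those genes. The 2 below were mia and kl-3, named after their values were seen. Their log2 fold changes were -0.50 and -0.11 (edgeR adjusted p = 0.0882 and 0.862). Of 17 spermatid markers, 0 were called, with 1 higher and 4 lower at an unadjusted p under 0.05 in edgeR (8.41% and 6.33% of all genes). Only 2 of the 17 spermatid values were above 0, against 51.6% of the genes that passed the filter, and the median was -0.19. The sperm tail gene dj had a log2 fold change of -0.35 (edgeR adjusted p = 0.307). Of 9 cyst cell and hub markers, 0 were called, with 1 higher at an unadjusted p under 0.05 in edgeR and a median of 0.07. The cyst cell factor tj was near the detection limit, from 23 to 33 counts with miR-2b-1 and 2 to 12 counts in the control. It was at 0.976 to 1.27 CPM with miR-2b-1 and 0.117 to 0.659 CPM in the control (edgeR adjusted p = 0.228). The hub ligand upd1 was at 20.9 to 25.6 CPM with miR-2b-1 and 22.8 to 27.9 CPM in the control. Of the 9 values 5 were above 0, against 51.6% of the genes that passed the filter. Sox100B, CadN and hh, named after their values were seen, had log2 fold changes of -0.89, -0.28 and -0.23.

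The muscle sheath markers were the 1 marker list with called genes. Of 11, 4 were called, all lower with miR-2b-1, against 1.51% of all genes, and the median was -1.35. These were Mhc, Mlc1, Mlc2 and Zasp66, genes of the sarcomere, with log2 fold changes of -0.93, -1.77, -1.35 and -1.35 (edgeR adjusted p = 0.0047, 0.0105, 0.0221 and 0.018). Without miR-2b-1 replicate 2 none of the 4 passed, with edgeR adjusted p of 0.0745 (Mlc1) to 0.139 (Zasp66), and without miR-2b-1 replicate 1 or control replicate 2 Mhc alone of the 4 did. Their list summed to 823 to 931 CPM with miR-2b-1 and 1125 to 1169 CPM in the control. Most of that sum was Act87E, at a mean of 619 CPM with miR-2b-1 and 687 CPM in the control, with groups that overlapped. The groups of sls also overlapped (log2 fold change 0.03). In the 4 called genes control replicate 3 was the lowest control library, as for Mlc1 with 36.5, 29.7 and 15.9 CPM in control replicates 1, 2 and 3. Of 11 fat body and hemocyte markers, 0 were called, with 1 lower at an unadjusted p under 0.05 in edgeR, and the summed level was 328 to 362 CPM with miR-2b-1 and 343 to 418 CPM in the control. Of the 26 accessory gland genes, 0 were called, 0 had an unadjusted p under 0.05 in edgeR, and the median of the 25 that passed the filter was -0.46.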

How the data were processed

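Testis RNA was sequenced from 3 miR-2b-1 and 3 control pools, from 2 ug of total RNA each. According to the submitters' processing notes and the study's methods, the authors used cutadapt, aligned cleaned reads to dm6 with STAR, and deposited the raw counts that featureCounts gave for each gene. Strand and multi-mapping settings are not given in the sources used here. There were 0 rows without a gene name. Left out were 6 columns of per-sample log2 values and the authors' table of fold changes and p-values.

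Counts were compared over all 17559 genes by edgeR's quasi-likelihood test (version 4.0.16, under R 4.3.3), with TMM factors, the older method with a robust prior, condition as the only term and an adjusted p under 0.05. The test was checked on simulated data. A standard error is the size of the log2 fold change over the root of F, and the 95% interval uses the fit's degrees of freedom and is approximate. Symbols, exon lengths and coordinates came from Ensembl release 115 of the same assembly, which held 17253 of the genes. Members, lists and tests were chosen with earlier results of these data known. The genes named were all members, called genes of each list (at most 4 by p), fixed regulators and markers, and the 5 genes most like the members. The planned promoter motif search needs sequence that was not used here. Alternatives were other normalizations, DESeq2 1.42.0, filters, the newer method, a non-robust prior, the replicate number as a block, an accessory gland covariate, a threshold of 0.01 and each replicate left out. Over the 15 pairs of libraries, chi-square per degree of freedom was at least 28.0, so no library was a copy. Levels per kilobase use all annotated exon bases.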

Additional observations from a re-analysis of the deposited data

How the results depend on the processing

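No setting made more than 1 of the 9 replication genes pass the threshold. The count was 0 in all but 1 of the alternatives, and in the fits without 1 replicate it ranged from 0 to 1. The median log2 fold change of the 9 genes ranged from 0.29 to 0.47 over the alternatives and from 0.30 to 0.43 in the fits without 1 replicate. Total counts in place of TMM moved the median of all genes that passed filterByExpr to 0.12 and that of the 9 genes to 0.46. Of the 153 alternative values of the 9 genes, 148 kept their direction and side of the threshold, 1 passed it (Mcm5) and 4 turned, namely Mcm10 with total counts (0.0073) and without control replicate 2 (0.049) and RnrS in the accessory-gland-poor libraries alone, an alternative added after seeing the data (0.12), and without control replicate 1 (0.047). Without 1 replicate Mcm10 ranged from -0.22 to 0.049 and RnrS from -0.23 to 0.047. Other replication genes called numbered 1 in the main setting, 2 with DESeq2, the accessory gland covariate, the replicate block, at least 10 counts in every sample and upper-quartile normalization, 3 in the accessory-gland-poor libraries, 0 with filterByExpr, the newer method, the prior that is not robust and a threshold of 0.01, and 0 to 3 without 1 replicate. Genes called over the whole table numbered 493, with 742 by DESeq2, 760 with the covariate, 956 in the accessory-gland-poor libraries (2 against 1 control library, which has no spread of its own), 236 with the prior that is not robust, 251 at 0.01 and 205 to 923 without 1 replicate. The cause was not tested. Of 559 alternative values of 33 other genes, 0 turned, 27 lost the threshold and 10 passed it. The 33 include Cdk1, PolA2, PolD1, PolD2 and Gnf1, which are not described above, and leave out some that are, such as tut, bgcn and sls. With the replicate block 349 genes and 0 of the 9 were called, Mhc, Mlc1, Mlc2 and Zasp66 lost the threshold (edgeR adjusted p = 0.0826 to 0.212), and the median of the 9 genes was 0.36. Deviations of same-numbered samples from their group means correlated at -0.58, 0.30 and 0.54 for replicates 1, 2 and 3. Deviations within a group depend on each other, so whether the numbers pair the samples cannot be told from these values. Counts were lowest for Mcm7 and RnrL, with at most 56 and 94 in a library. Of the Mcm7 exon bases 81.7% are shared with another gene, and the parts of depth and of this overlap were not tested.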

Other observations

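Among the protein-coding genes with annotated exons, full exon overlap went with zero counts. Genes that share part of their exon bases had 0 counts in all libraries in 2.63% of 4147 cases, close to the 2.91% of genes that share none, and the share was 93.3% only where every base is shared. Of the genes listed for this comparison, Orc3, dUTPase and the seminal fluid gene Acp95EF were in the last class, and each had 0 counts. For dUTPase and Acp95EF the other gene lies on the opposite strand.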
